A study of Mus musculus with 42 samples.

Results

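The transcripts of 7 transcriptional regulators that pass the time of day from the circadian clock to other genes were followed in liver: Dbp, Tef, Hlf, Nfil3, Ciart, Bhlhe40, and Bhlhe41. They were taken by gene name from a table of 54532 genes, and each name matched 1 gene. The libraries came from female C57BL/6 mice (substrain C57BL/6NHsd) fed 1 of 2 diets for 3 weeks after weaning: the AIN93G diet, with soybean oil as 16% of energy, or its high-fat form (HFD), with 45%. Mice were 6 weeks old at the end and were terminated every 4 h, and livers of 3 mice per diet at each of 7 Zeitgeber times (ZT, from 0 to 24 h) gave 42 libraries of poly(A) RNA. Lights were on from ZT 0 to ZT 12, and mice were group-housed. Both groups were first acclimated on the AIN93G diet and were injected with ketamine and xylazine at termination. No other treatment is named for either group. The comparisons asked when each transcript was high and low, and whether the diet changed its level or its timing.

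In the liver clock, BMAL1 with CLOCK or NPAS2 binds E-boxes and switches on the genes of its own repressors, and also Dbp, Tef, and Ciart. DBP, TEF, and HLF are the PAR bZIP activators, which bind D-boxes in genes of detoxification, haem synthesis, and bile acid synthesis, while NFIL3 (E4BP4) is a bZIP repressor that binds the same D-boxes. CIART (CHRONO) and the basic helix-loop-helix proteins BHLHE40 (DEC1) and BHLHE41 (DEC2) repress transcription driven by CLOCK and BMAL1. Nfil3, like the BMAL1 gene Arntl, is a known target of the ROR activators and REV-ERB repressors, which share an element.

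Not every library labelled as liver held liver transcripts. The libraries were split by the albumin transcript Alb at 10000 CPM (counts scaled to equal library totals), and its values, which the split used, were 66430 to 112000 CPM in 32 libraries (13 AIN93G and 19 HFD) and 18.7 to 81.0 CPM in the other 10. In the 32 liver libraries, 11 other hepatocyte transcripts summed to between 42360 and 58680 CPM, and 10 adipocyte transcripts summed to between 53.9 and 132 CPM. In the other 10 libraries the hepatocyte list without Alb summed to between 509.7 and 1336 CPM and the adipocyte list to between 17410 and 28970 CPM. These 10 adipocyte-rich libraries, kept apart throughout, included every AIN93G library of ZT 16 and of ZT 20, together with 2 of 3 libraries of each diet at ZT 24. Total counts ran from 14592481 to 21368409 per library, so that 3 counts, taken as the floor, equalled at most 0.206 CPM. In bulk tissue, fewer cells of a type cannot be told apart from less RNA per cell. ZT 12, whose replicates were far apart in clock transcripts, and ZT 24, with 1 liver library per diet, were left out of the main tests in liver. The choice on ZT 12 thus rested on values of the kind tested. Several tests were repeated with ZT 12 added.

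The DNA before 6 of the 7 genes was searched, because several of them moved together over the day. The windows were the 250 bases upstream of each start in a set of RefSeq promoters (GRCm38.p6, the assembly of the deposited mm10 positions). The set at hand held no window for Bhlhe40 and 2 starts for Tef. The E-box CACGTG occurred in the windows of Ciart, Tef, and Bhlhe41, searched on both strands, and in 6.02% of all 32851 windows. Ciart had 3 copies, and 20 windows (0.0609%) had at least 3. In the sequences shown here, 5′ to 3′ on the strand of the gene, capitals mark the E-box, and bases inside exons of GENCODE M21 were left out.
Ciart, chr3:95882252-95882478, minus strand: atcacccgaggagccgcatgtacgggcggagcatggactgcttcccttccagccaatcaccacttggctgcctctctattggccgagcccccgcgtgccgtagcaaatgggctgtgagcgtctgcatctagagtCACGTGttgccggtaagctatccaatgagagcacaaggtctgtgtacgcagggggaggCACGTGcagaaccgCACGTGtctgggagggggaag
Tef, second start, chr15:81811164-81811413, plus strand: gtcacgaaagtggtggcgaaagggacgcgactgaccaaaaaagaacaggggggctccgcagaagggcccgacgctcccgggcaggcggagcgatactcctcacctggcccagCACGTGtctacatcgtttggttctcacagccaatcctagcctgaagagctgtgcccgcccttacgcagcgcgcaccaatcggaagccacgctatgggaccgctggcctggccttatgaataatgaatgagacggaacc
Bhlhe41, chr6:145865559-145865670, minus strand: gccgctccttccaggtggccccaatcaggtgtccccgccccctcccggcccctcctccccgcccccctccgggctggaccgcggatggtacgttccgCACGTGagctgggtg

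The E-boxes of Ciart began 116, 58, and 44 bases before its start, that of the second Tef start 138 bases before it, and that of Bhlhe41 153 bases before its start. The first Tef start also had an E-box, 127 bases before it, inside an annotated exon, and only its surroundings are shown. Nfil3 was the 1 member with the ROR element TAGGTCA, which was searched on both strands and occurred in 2.23% of all windows. It lay 12 bases before the start, on the opposite strand, inside an annotated exon, and its letters in capitals are those of the strand of the gene.
Tef, first start, chr15:81802534-81802563, plus strand: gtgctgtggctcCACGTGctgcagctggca
Nfil3, chr13:52981040-52981069, minus strand: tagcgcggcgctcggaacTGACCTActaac

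The windows of Dbp and Hlf held none of the 5 motifs searched. The E-box variant CACGTT (3.85% of all windows) and the D-boxes TTATGTAA (0.819%) and TTACGTAA (0.113%) were found before no member. These are matches of letters in a short window, not binding sites.

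**Figure D1:**
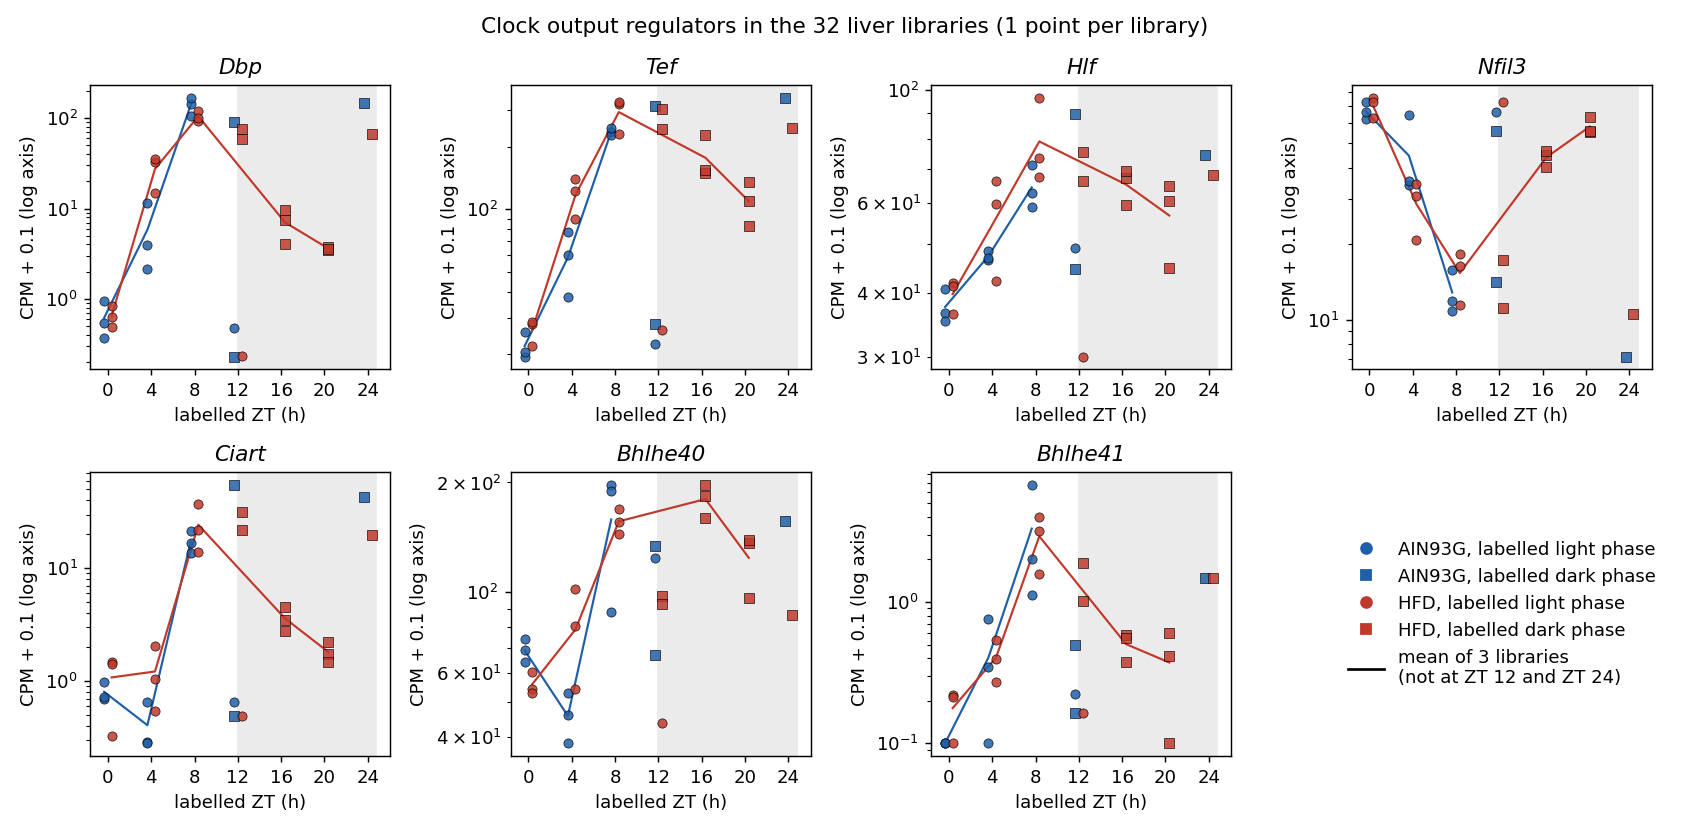
Each panel shows 1 gene in the 32 liver libraries by labelled ZT, as CPM + 0.1 on a log axis, with AIN93G in blue, the HFD in red, circles for libraries labelled light phase and squares for dark phase. Lines join means of 3 libraries at time points other than ZT 12 and ZT 24. Dbp spans the widest range, and the ZT 12 libraries lie at both ends of the range for Dbp, Tef, and Ciart.

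Dbp, a PAR bZIP activator (chromosome 7, 45705088 to 45710203), had the widest range. On the AIN93G diet it was at 0.835, 0.264, and 0.440 CPM at ZT 0, at 11.3, 2.03, and 3.80 CPM at ZT 4, and at 145, 107, and 168 CPM at ZT 8. On the HFD it was at 0.529, 0.722, and 0.392 CPM at ZT 0, at 32.3, 14.6, and 35.3 CPM at ZT 4, and at 93.3, 122, and 101 CPM at ZT 8, then at 7.36, 9.53, and 3.94 CPM at ZT 16 and at 3.40, 3.67, and 3.46 CPM at ZT 20. Of these time points ZT 0 was the lowest and ZT 8 the highest in both diets, and no 2 of them overlapped within a diet. At ZT 4 the 3 HFD libraries lay above the 3 AIN93G libraries. From ZT 0 to ZT 8 the mean on the HFD differed by 192-fold. Its gene shares 737 bases with Sphk2 on the opposite strand, whose reads cannot be told apart there without a strand setting.

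Tef, the PAR bZIP activator with the highest counts (chromosome 15, 81802421 to 81826863), was also lowest at ZT 0 and highest at ZT 8 among the tested times of both diets, over a smaller range. It was at 25.6, 19.4, and 20.4 CPM at ZT 0, at 78.0, 37.6, and 60.0 CPM at ZT 4, and at 236, 228, and 247 CPM at ZT 8 on the AIN93G diet. On the HFD it was at 27.8, 28.4, and 21.9 CPM at ZT 0, 140, 89.8, and 122 CPM at ZT 4, 322, 230, and 329 CPM at ZT 8, 150, 227, and 154 CPM at ZT 16, and 110, 135, and 83.4 CPM at ZT 20. On both diets ZT 0, ZT 4, and ZT 8 did not overlap. On the HFD, the ZT 16 libraries of Tef lay above those of ZT 4 and its ZT 20 libraries overlapped them, whereas the Dbp libraries of both times lay below those of ZT 4.

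Hlf, also a PAR bZIP activator (chromosome 11, 90336536 to 90390895), varied least. Its AIN93G libraries were at 40.7, 36.5, and 35.2 CPM at ZT 0, at 46.3, 48.4, and 46.8 CPM at ZT 4, and at 71.2, 62.7, and 59.0 CPM at ZT 8. On the HFD it was at 41.8, 41.1, and 36.3 CPM at ZT 0, 59.6, 42.1, and 66.2 CPM at ZT 4, 96.3, 67.5, and 73.6 CPM at ZT 8, 59.4, 67.0, and 69.2 CPM at ZT 16, and 60.6, 64.8, and 44.6 CPM at ZT 20. Of the tested time points ZT 0 was the lowest in both diets, and the later HFD time points overlapped each other in part. The peak-to-trough fold of the HFD means was 1.99 for Hlf, against 11.3 for Tef.

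Nfil3, the bZIP repressor (chromosome 13, 52967209 to 52981073), was highest at ZT 0 and lowest at ZT 8 of the tested times, where the activators were lowest and highest. On the AIN93G diet it was at 62.1, 72.5, and 66.3 CPM at ZT 0, at 34.0, 64.5, and 35.2 CPM at ZT 4, and at 15.7, 11.8, and 10.7 CPM at ZT 8. On the HFD it was at 75.6, 62.8, and 72.6 CPM at ZT 0, 20.6, 30.9, and 34.3 CPM at ZT 4, 11.3, 16.2, and 18.1 CPM at ZT 8, 45.0, 46.3, and 40.4 CPM at ZT 16, and 55.2, 56.0, and 63.3 CPM at ZT 20. One AIN93G library of ZT 4 still lay within the ZT 0 range. On the HFD, Nfil3 and Tef were both higher at ZT 16 than at ZT 4 without overlap, while Dbp was lower.

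Within a library, the log2 ratio of Dbp to Nfil3 CPM sets the activator against the repressor. It lay between -8.10 and -6.22 at ZT 0 on the AIN93G diet and between -7.53 and -6.44 on the HFD. At ZT 4 it lay between -4.99 and -1.58 on the AIN93G diet and between -1.08 and 0.65 on the HFD, so that the diets did not overlap. At ZT 8 it lay between 3.17 and 3.98 on the AIN93G diet and between 2.47 and 3.04 on the HFD, again without overlap but with the AIN93G diet higher. The ratio was above 0 at ZT 8 in all 6 libraries and again below 0 at ZT 16 (-3.36 to -2.28) and ZT 20 (-4.20 to -3.93) on the HFD. It compares CPM of 2 genes of different length, so 0 does not mean equal numbers of transcripts.

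**Figure D2:**
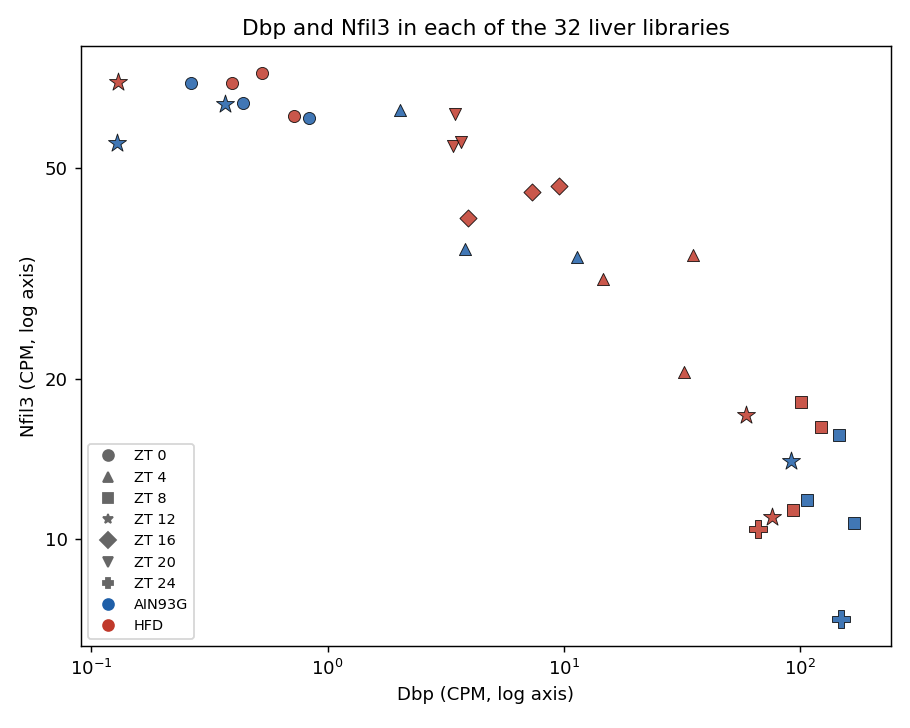
Nfil3 CPM is plotted against Dbp CPM for each of the 32 liver libraries, both on log axes, with symbols for the labelled ZT and colours for the diet. The libraries run from low Dbp and high Nfil3 at ZT 0 to high Dbp and low Nfil3 at ZT 8, and the stars of ZT 12 lie at both ends.

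Ciart, a repressor of CLOCK and BMAL1 (chromosome 3, 95878503 to 95882251), stayed near its lowest level until ZT 4, where 2 AIN93G libraries held 3 counts each, at the floor, so that its differences from ZT 4 are imprecise. On the AIN93G diet it was at 0.890, 0.595, and 0.628 CPM at ZT 0, at 0.186, 0.552, and 0.181 CPM at ZT 4, and at 21.5, 13.6, and 16.5 CPM at ZT 8. On the HFD it was at 1.39, 1.32, and 0.224 CPM at ZT 0, 1.96, 0.442, and 0.952 CPM at ZT 4, 36.9, 13.9, and 21.9 CPM at ZT 8, 3.37, 4.45, and 2.67 CPM at ZT 16, and 2.11, 1.65, and 1.38 CPM at ZT 20. ZT 8 stood above the other tested time points in both diets, and ZT 4 overlapped ZT 0 on the HFD, whereas Dbp and Tef were already above ZT 0 by then.

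Bhlhe40, which also represses CLOCK and BMAL1 (chromosome 6, 108660629 to 108666925), had its highest HFD mean at ZT 16, later than the activators. It was at 74.0, 69.1, and 64.2 CPM at ZT 0, 38.3, 45.8, and 52.6 CPM at ZT 4, and 197, 87.9, and 189 CPM at ZT 8 on the AIN93G diet. On the HFD it was at 54.1, 52.8, and 60.2 CPM at ZT 0, 102, 54.2, and 80.7 CPM at ZT 4, 155, 145, and 169 CPM at ZT 8, 196, 160, and 183 CPM at ZT 16, and 137, 139, and 96.3 CPM at ZT 20. The ZT 16 libraries overlapped those of ZT 8 and lay above those of ZT 20.

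Bhlhe41, its paralog (chromosome 6, 145858243 to 145865558), was near the floor in liver. It had 0 counts in all 3 AIN93G libraries of ZT 0, which allows at most 0.198 CPM by counting error in the shallowest of them, and 6 of the 32 liver libraries had 0 counts. Of the tested times it was highest at ZT 8, with 1.02, 1.92, and 6.66 CPM on the AIN93G diet and 1.49, 3.08, and 3.88 CPM on the HFD. All 6 ZT 8 libraries lay above every library of ZT 0, 4, 16, and 20. At ZT 12 it was at 0.399, 0.123, and 0.0645 CPM on the AIN93G diet and at 0.9198, 1.80, and 0.0651 CPM on the HFD, and the 2 liver libraries of ZT 24 had 1.38 and 1.37 CPM. Its mean count was under the minimum of 25 for testing in liver.

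Levels can be set against each other between genes only per length, taken from the deposited table. At its highest HFD time point, Bhlhe40 averaged 38.2 CPM per kilobase (34.0 to 41.7 over 3 libraries), Tef 37.3 (29.2 to 41.9), Dbp 35.2 (31.2 to 40.7), and Nfil3 34.7 (30.98 to 37.3). These 4 overlapped. Hlf followed with 11.8 CPM per kilobase (10.1 to 14.4) and Ciart with 10.7 (6.15 to 16.3), which also overlapped, and Bhlhe41 with 0.419 (0.221 to 0.577) lay below them all. The repressor Nfil3 and the activators Tef and Dbp thus overlapped in peak level per length, at different times of day.

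Time of day was tested on the HFD over ZT 0, 4, 8, 16, and 20 (15 liver libraries) by edgeR (quasi-likelihood F-test) at a Benjamini-Hochberg adjusted p of 0.05 over 12000 genes. All 6 members that reached the minimum count passed, where 629 genes (5.24%) did so. Between the highest and lowest time point, Dbp differed by 7.64 on the log2 scale (adjusted p = 1.6e-08), Ciart by 4.73 (4.8e-05), Tef by 3.57 (4.4e-06), Nfil3 by 2.14 (4.2e-05), Bhlhe40 by 1.76 (2.0e-04), and Hlf by 1.07 (0.022). The range of all genes had a median of 0.45. Hlf lost its call without any 1 of HFD ZT 0 replicates 1, 2, and 3 (adjusted p = 0.0523, 0.0547, and 0.0738). With the 3 ZT 12 libraries added, 4 members and 318 genes (2.65%) passed, Hlf (adjusted p = 0.175) and Nfil3 (0.0606) not among them. The adipocyte list also moved within liver, from 53.9 to 60.4 CPM at ZT 0 to 95.9 to 118 CPM at ZT 8 on the AIN93G diet, and from 64.8 to 74.9 CPM to 82.1 to 125 CPM on the HFD, where ZT 16 (56.5 to 78.2 CPM) and ZT 20 (54.9 to 79.96 CPM) overlapped ZT 0. Of its 10 genes, Pnpla2 gave the largest part, and it did not overlap between these times on either diet (30.2 to 37.9 CPM and 66.2 to 78.4 CPM on the AIN93G diet). Cidec also did not overlap on either diet (1.51 to 1.72 CPM and 3.06 to 3.74 CPM on the AIN93G diet, 2.05 to 2.30 CPM and 3.37 to 4.88 CPM on the HFD). Lipe did not overlap on the AIN93G diet (7.01 to 8.40 CPM and 11.6 to 12.3 CPM) but did on the HFD. The rest of the list overlapped between these times on both diets. The defining marker Adipoq was at most 0.840 CPM in liver libraries, except for AIN93G ZT 4 replicate 3 with 5.01 CPM, which also had the highest sum of the list (132 CPM). The part of these transcripts in the members' levels was not tested.

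On the AIN93G diet, time of day was tested in liver over ZT 0, 4, and 8 (9 libraries). All 6 members passed the same test, where 288 of 12000 genes (2.40%) did. The log2 differences between the highest and lowest time point were 8.10 for Dbp (adjusted p = 1.8e-04), 5.81 for Ciart (2.5e-05), 3.50 for Tef (1.7e-04), 2.33 for Nfil3 (0.0019), 1.83 for Bhlhe40 (0.012), and 0.84 for Hlf (0.012), beside a median of 0.28 over all genes. Hlf missed the threshold without AIN93G ZT 0 replicate 2 (adjusted p = 0.0608) or replicate 3 (0.0618). With the ZT 12 libraries added, none of the 6 members and 0 genes passed by edgeR, although 1174 genes and all 6 members had an unadjusted p under 0.05.

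Each step of the light phase was tested in both diets together, with diet as a factor (18 libraries). From ZT 0 to ZT 4, Dbp rose by 4.82 ± 0.60 (log2, SE; adjusted p = 3.4e-04) and Tef by 1.85 ± 0.19 (3.1e-05), where 53 genes (0.442%) rose. Nfil3 fell by 0.89 ± 0.18 (adjusted p = 0.025), where 63 genes (0.525%) fell. Hlf differed by 0.45 ± 0.11 (adjusted p = 0.067), Ciart by -0.25 ± 0.47 (0.86), and Bhlhe40 by 0.003 ± 0.22 (1.00). The call of Nfil3 was lost without any 1 of 8 libraries, with an adjusted p between 0.0504 and 0.0691: AIN93G ZT 0 replicates 2 and 3, AIN93G ZT 4 replicates 1 and 3, HFD ZT 0 replicate 3, and HFD ZT 4 replicates 1, 2, and 3. Hlf passed without HFD ZT 4 replicate 2 (adjusted p = 0.0300) or HFD ZT 8 replicate 1 (0.0336), with DESeq2 (0.0182), and with no filter on low counts (0.0264). For Bhlhe40 the value averages both diets. Its AIN93G libraries were lower at ZT 4 (38.3 to 52.6 CPM) than at ZT 0 (64.2 to 74.0 CPM), while the HFD libraries of ZT 4 (54.2 to 102 CPM) overlapped or lay above those of ZT 0 (52.8 to 60.2 CPM). The difference of this step between the diets, 1.10 ± 0.36 (HFD minus AIN93G), did not pass, with an unadjusted p of 0.0072 and an adjusted p of 1.00 in edgeR.

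From ZT 4 to ZT 8 all 6 members changed. Ciart rose by 4.96 ± 0.41 (adjusted p = 4.1e-07), Dbp by 3.18 ± 0.46 (2.7e-04), Tef by 1.68 ± 0.19 (1.8e-05), Bhlhe40 by 1.39 ± 0.22 (6.1e-04), and Hlf by 0.51 ± 0.11 (0.014), where 239 genes (1.99%) rose. Nfil3 fell by 1.34 ± 0.19 (2.6e-04), where 325 genes (2.71%) fell. Both steps share the ZT 4 libraries, and the difference between the steps was not tested. Dbp, Tef, and Nfil3 passed in both steps.

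Libraries taken 12 h apart were set against each other on the HFD. From ZT 4 to ZT 16, Bhlhe40 rose by 1.23 ± 0.19 (adjusted p = 0.0035), where 105 of 12000 genes (0.875%) rose, and Dbp fell by 1.95 ± 0.30 (0.0033), where 117 (0.975%) fell. Ciart differed by 1.66 ± 0.54 (adjusted p = 0.12), Nfil3 by 0.65 ± 0.18 (0.082), Tef by 0.64 ± 0.22 (0.15), and Hlf by 0.26 ± 0.18 (0.54), and none of these passed in edgeR. With DESeq2, Ciart (adjusted p = 0.0232) and Nfil3 (0.0255) passed as well, where 592 genes (4.93%) did. With no filter on low counts Ciart (2.2e-05), Nfil3 (0.0106), and Tef (0.0136) passed, where 818 of 28134 genes (2.91%) did. Nfil3 also passed in limma with the number in the sample titles as a random block (adjusted p = 0.0476), with an estimated correlation of 0.33 between libraries that share a number.

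From ZT 8 to ZT 20, Dbp fell by 4.89 ± 0.34 (adjusted p = 1.0e-06), where 197 genes (1.64%) fell. Ciart fell by 3.83 ± 0.52 (5.3e-04), and Tef fell by 1.44 ± 0.22 (0.0015). Nfil3 rose by 1.95 ± 0.19 (2.2e-05), where 281 genes (2.34%) rose. Hlf differed by -0.49 ± 0.18 (adjusted p = 0.17) and Bhlhe40 by -0.34 ± 0.19 (0.39). For Hlf (unadjusted p = 0.017) and Bhlhe40 (0.090), which did not pass, the 3 libraries of ZT 20 lay narrowly below the 3 of ZT 8. The highest ZT 20 and lowest ZT 8 values were 64.8 and 67.5 CPM for Hlf and 139.3 and 144.6 CPM for Bhlhe40. How many of all genes separated in this way was not counted. Dbp, Ciart, and Tef were thus lower at ZT 20 and Nfil3 higher. These contrasts come from the same 15 libraries as the test of time of day.

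A cosine curve of 24 h was fitted to log2 CPM in the 15 HFD liver libraries with limma. It passed for all 6 members, where 1021 of 12000 genes (8.51%) did. The fitted peak, or acrophase, lay at ZT 9.73 ± 0.47 h (SE) for Dbp, ZT 11.1 ± 0.60 for Ciart, ZT 11.5 ± 0.46 for Tef, and ZT 11.6 ± 0.62 for Hlf. That of Bhlhe40 lay at ZT 12.99 ± 0.37 and that of Nfil3 at ZT 21.2 ± 0.38. For reference, Nr1d1 (the REV-ERBα gene) peaked at ZT 7.11 ± 0.32 and Arntl at ZT 21.5 ± 0.35.

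The amplitude of the curve, which runs from its mean to its peak, was 3.49 ± 0.48 (log2, SE) for Dbp, 2.45 ± 0.49 for Ciart, and 1.77 ± 0.27 for Tef. It was 1.12 ± 0.11 for Nfil3, 1.04 ± 0.13 for Bhlhe40, and 0.54 ± 0.11 for Hlf. The acrophases of Ciart, Tef, and Hlf lay within their SE of each other, and the curve rests on 5 time points with none between ZT 8 and ZT 16. With the ZT 12 libraries added, Bhlhe40 (adjusted p = 0.176), Hlf (0.232), and Tef (0.0606) no longer passed, where 1039 genes (8.66%) did, and the amplitudes were 0.52 for Bhlhe40, 0.31 for Hlf, and 1.16 for Tef, while the acrophase of Dbp lay at ZT 8.91 and that of Bhlhe40 at ZT 14.1. With HFD ZT 24 replicate 3, the 1 liver library of that group, added, Ciart (0.137) and Hlf (0.0825) no longer passed, where 394 genes (3.28%) did. The acrophase of Dbp then lay at ZT 9.24 and that of Nfil3 at ZT 20.3, and the amplitude was 1.87 for Ciart and 0.45 for Hlf.

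**Figure D3:**
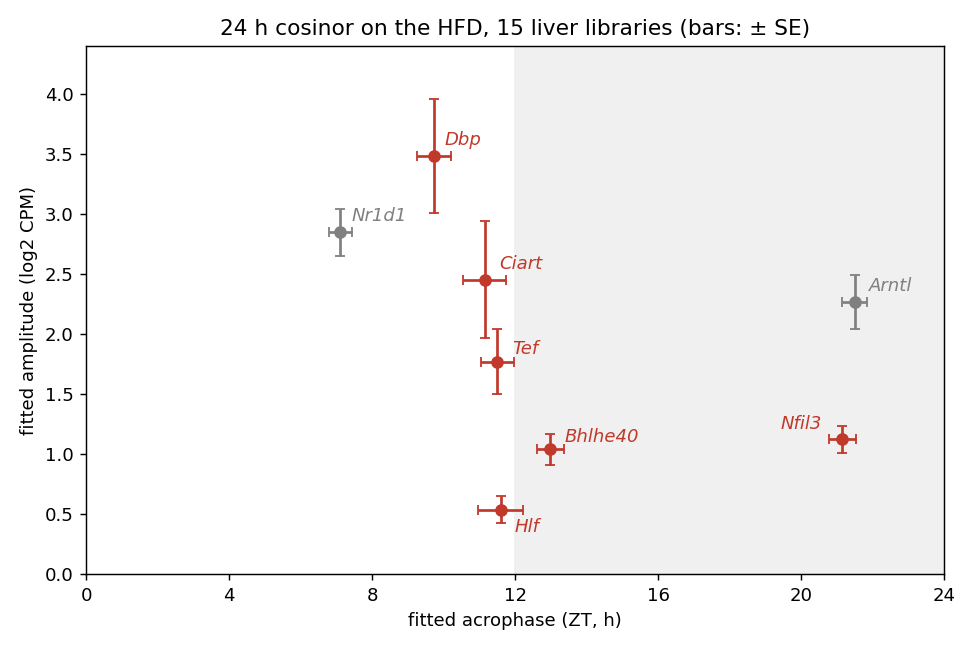
Fitted amplitude (log2 CPM) is plotted against fitted acrophase (ZT, h) from the 24 h cosine curve in the 15 HFD liver libraries, with bars of ± SE. Members are in red, and Nr1d1 and Arntl in grey. Dbp has the largest amplitude of the 8 genes, and Nfil3 shares the late acrophase of Arntl (ZT 21.2 and ZT 21.5) at a smaller amplitude.

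The diets were compared in liver over ZT 0, 4, and 8. With time point as a factor, no member passed in edgeR, where 85 of 12000 genes (0.708%) did. DESeq2 called 0 of 6 members and 259 genes (2.16%), and 2 of the 6, Tef and Ciart, had an unadjusted p under 0.05 in edgeR, as did 1558 genes (13%). With the 6 ZT 12 libraries added, 0 members and 949 genes did. With no filter on low counts, Tef passed (0.49, adjusted p = 0.0064), as did 436 of 28792 genes (1.51%). Tef was higher on the HFD by 0.50 ± 0.15 (log2, SE; adjusted p = 0.16), Ciart by 0.74 ± 0.32 (0.34), Dbp by 0.68 ± 0.42 (0.50), Hlf by 0.19 ± 0.09 (0.39), and Bhlhe40 by 0.13 ± 0.18 (0.79), and Nfil3 differed by -0.13 ± 0.15 (0.74). At ZT 16 and ZT 20 the diets were not compared, since the AIN93G libraries were adipocyte-rich and diet cannot be told apart from tissue there.

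For 5 of the 6 members the largest difference between the diets was at ZT 4, where none passed. At ZT 4 alone, 0 of 12000 genes passed in edgeR, and 404 had an unadjusted p under 0.05. Dbp differed there by 2.20 ± 0.45 (log2, HFD minus AIN93G), with an unadjusted p of 1.4e-04 and an adjusted p of 0.33 in edgeR, and its 3 HFD libraries lay above the 3 AIN93G libraries. Tef differed by 0.96 ± 0.24, Bhlhe40 by 0.76 ± 0.26, Ciart by 1.83 ± 0.70, and Nfil3 by -0.65 ± 0.23, each with an adjusted p of 1.00. The HFD libraries lay above the AIN93G libraries for Tef and Bhlhe40, while the diets overlapped for Ciart and Nfil3. How many of all genes separated the diets in this way was not counted. Without AIN93G ZT 4 replicate 3, the liver library highest in adipocyte transcripts, the difference was 1.97 ± 0.51 for Dbp (adjusted p = 0.75), 0.97 ± 0.29 for Tef, 0.88 ± 0.29 for Bhlhe40, 1.57 ± 0.80 for Ciart, and -0.79 ± 0.24 for Nfil3, and none passed. At ZT 0 and ZT 8 the differences of the 6 members lay between -0.44 ± 0.40 (Dbp at ZT 8) and 0.49 ± 0.44 (Ciart at ZT 8).

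Whether the course over the light phase differed between the diets was tested as the interaction of diet with time. No gene of 12000 passed in edgeR (0%) or in DESeq2, where 444 (3.7%) and 516 genes had an unadjusted p under 0.05. In edgeR, 3 of the 6 members had an unadjusted p under 0.05, Dbp (0.0014), Bhlhe40 (0.020), and Nfil3 (0.033), and the adjusted p was 1.00 for each. Without HFD ZT 4 replicate 1, 1 member did, and with the 6 ZT 12 libraries added 0 members and 701 genes did. Without a filter on low counts, 273 of 28792 genes (0.948%) passed, Dbp and Bhlhe40 among them. With that exception, no member passed in any alternative, and the adjusted p of Dbp ran from 0.0515 to 1.00 over the fits without 1 library.

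**Figure D4:**
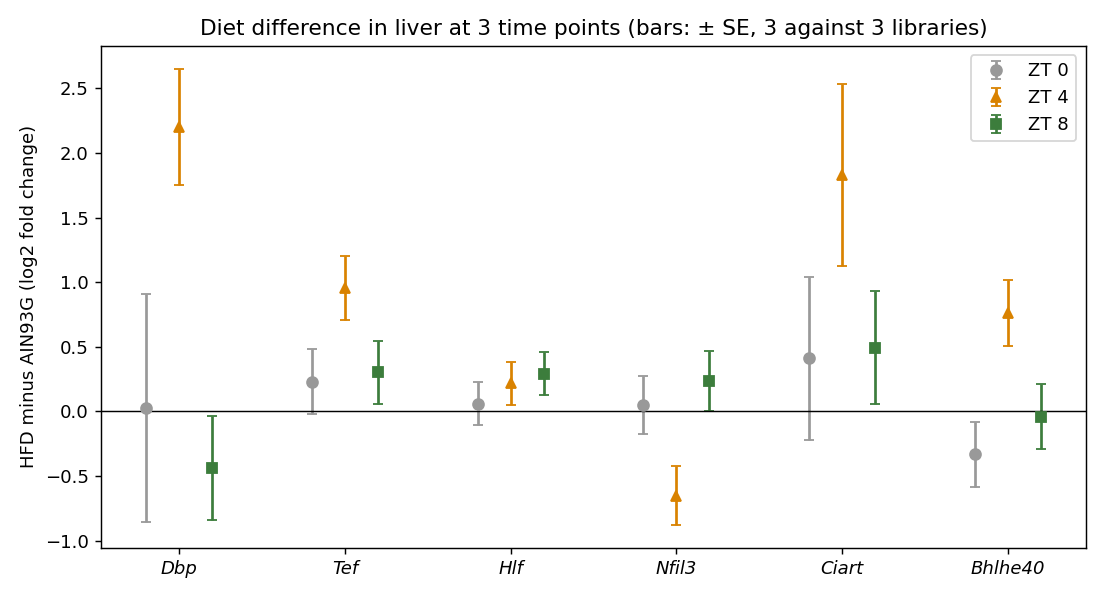
Points give the log2 difference, HFD minus AIN93G, of 6 members in liver at ZT 0, ZT 4, and ZT 8, with bars of ± SE from the edgeR fit of 18 libraries. Dbp, Ciart, Tef, and Bhlhe40 lie above 0 and Nfil3 below 0 at ZT 4, and none of these differences passed the threshold after adjustment.

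At ZT 12 replicates of 1 diet were far apart. Dbp was at 91.4, 0.369, and 0.129 CPM in AIN93G replicates 1, 2, and 3 and at 59.0, 76.0, and 0.130 CPM in HFD replicates 1, 2, and 3. The values 0.129 and 0.130 CPM are 2 counts each and lie under the floor. AIN93G replicate 2 and HFD replicate 3 carry the light phase in their labels and the other 4 the dark phase. The 2 libraries labelled light were low in Dbp, and of the 4 labelled dark 3 were high and AIN93G replicate 3 was low.

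In the same order of replicates, Tef was at 313, 22.3, and 27.8 CPM on the AIN93G diet and at 243, 305, and 26.1 CPM on the HFD. Nfil3 was at 14.01, 66.2, and 55.8 CPM and at 17.1, 11, and 72.8 CPM, and Ciart at 55.1, 0.554, and 0.387 CPM and at 21.96, 31.4, and 0.391 CPM. Each library was thus on the same side for Dbp, Tef, and Ciart, and on the other for Nfil3. Hlf was at 89.7, 48.9, and 44.4 CPM and at 66.2, 75.5, and 29.96 CPM, the last below every HFD library of ZT 0. Bhlhe40 did not follow on the AIN93G diet, with 133.9, 124.2, and 67.2 CPM, where replicate 2 lay beside replicate 1, and was at 97.2, 92.9, and 43.5 CPM on the HFD. Over 6 members, AIN93G replicate 1 and HFD replicates 1 and 2 lay closest to the HFD means of ZT 8 among those of ZT 0, 4, 8, 16, and 20, at root mean square distances of 0.551, 0.467, and 0.448 in log2(CPM + 0.1), with ZT 16 as the next nearest (2.38, 1.82, and 2.16). AIN93G replicates 2 and 3 and HFD replicate 3 lay closest to those of ZT 0, at 0.557, 0.720, and 0.723. Nr1d1 was at 13.8, 1.72, and 2.77 CPM on the AIN93G diet and at 11.3, 14.4, and 5.602 CPM on the HFD, so that no library reached its ZT 8 values of 49.8 to 113 CPM.

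At ZT 24, the same clock time as ZT 0, the members were not at their ZT 0 levels. The AIN93G liver library (replicate 3) had Dbp at 148 CPM, Tef at 344 CPM, Hlf at 74.4 CPM, Ciart at 42.5 CPM, Bhlhe40 at 156.7 CPM, and Nfil3 at 7.05 CPM. The HFD liver library (replicate 3) had Dbp at 66.1 CPM, Tef at 247 CPM, Hlf at 68.1 CPM, Ciart at 19.6 CPM, Bhlhe40 at 86.6 CPM, and Nfil3 at 10.4 CPM. By the same measure both lay closest to ZT 8, at a distance of 0.621 and 0.509, against 4.49 and 3.75 from ZT 0, and all 6 ZT 24 libraries are labelled dark phase. Nr1d1 was at 17.5 and 11.4 CPM in these 2 libraries, under its ZT 8 values as well. The reason for these levels was not tested.

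The 10 adipocyte-rich libraries showed where the members differ between sources of RNA. Bhlhe41 was at 24.6 to 108 CPM there, above its highest liver value of 6.66 CPM. The other 6 members overlapped between the sources, with Dbp at 7.40 to 143 CPM, Tef at 83.1 to 513 CPM, Hlf at 16.9 to 89.7 CPM, Nfil3 at 9.77 to 47.0 CPM, Ciart at 1.17 to 14.1 CPM, and Bhlhe40 at 38 to 259 CPM. Markers of other cells also moved with the source. There, 6 fibroblast transcripts summed to between 3872 and 10050 CPM (172 to 303 CPM in liver), 5 of brown adipocytes to between 112 and 1603 CPM (11.5 to 78.5 CPM), 3 of endothelium to between 204 and 339 CPM (53.9 to 118 CPM), and 3 of cholangiocytes to between 49.98 and 509 CPM (1.24 to 18.9 CPM). These 4 lists did not overlap between the sources. The lists of lymphocytes (0.922 to 1193 CPM, against 1.19 to 4.71 CPM), mammary epithelium (62.4 to 974 CPM, against 238 to 449 CPM), and macrophages (90.6 to 305 CPM, against 178 to 486 CPM) overlapped. Their part in these levels was not tested, and the source cannot be told apart from diet and time in most of these libraries.

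**Figure D5:**
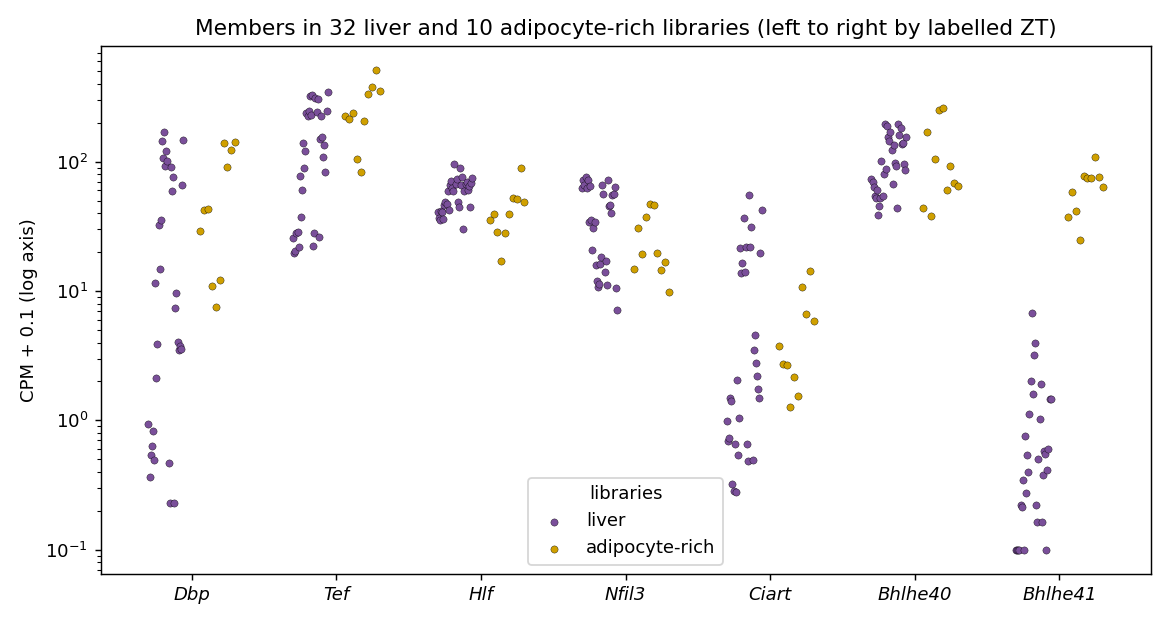
CPM + 0.1 of each member is shown on a log axis for the 32 liver libraries and the 10 adipocyte-rich libraries, ordered from left to right by labelled ZT within each source. Bhlhe41 is the member whose adipocyte-rich libraries (24.6 to 108 CPM) all lie above its liver libraries (up to 6.66 CPM).

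Within the adipocyte-rich AIN93G libraries, Dbp was at 41.96, 43.4, and 28.8 CPM at ZT 16 and at 10.9, 7.40, and 12.1 CPM at ZT 20. Nfil3 was at 30.8, 19.3, and 14.6 CPM at ZT 16 and at 37.3, 47.0, and 46.3 CPM at ZT 20. The time points did not overlap for either gene. The edgeR test of ZT 20 against ZT 16 called 0 of 14071 genes (0%), with 1404 at an unadjusted p under 0.05, and DESeq2 called 165 (1.17%). Dbp differed by -1.73 ± 0.26 (adjusted p = 0.49 in edgeR and 8.0e-06 in DESeq2) and Nfil3 by 1.19 ± 0.27 (0.49 and 0.020). The 4 adipocyte-rich libraries of ZT 24 had Dbp at 90.8 to 143 CPM and Nfil3 at 9.77 to 19.7 CPM. They lay closest to the ZT 8 means of liver (0.666 to 1.04), as the liver libraries of ZT 24 did. Their next nearest time was ZT 4, whereas that of the liver libraries of ZT 24 was ZT 16. Nr1d1 was at 41.4 to 99.5 CPM in them, against 17.5 and 11.4 CPM in those liver libraries.

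The list of 16 core clock genes was chosen with results of these data known, and its counts are a description. Time of day passed for 12 of 16 on the HFD, beside 5.24% of all genes, and 9 of 16 on the AIN93G diet, beside 2.40%, with median log2 ranges of 2.93 and 1.91. From ZT 8 to ZT 20 on the HFD, 5 rose and 4 fell, beside 2.34% and 1.64% of all genes, with a median log2 difference of 0.17 against -0.005 over all genes. Arntl was at 2.38, 2.19, and 1.54 CPM at ZT 8 and at 40.7, 44.5, and 38.2 CPM at ZT 20, a rise of 4.34 ± 0.18 (log2, SE; adjusted p = 9.2e-10). Nr1d1 fell by 5.49 ± 0.39 (1.1e-06), from 49.8, 81.0, and 71.3 CPM to 1.47, 1.27, and 1.70 CPM. Npas2, the partner of BMAL1 that can replace CLOCK, had no count in 2 of the ZT 8 libraries and 1 count in the other, and was at 9.56, 12.7, and 12.1 CPM at ZT 20. Nfil3 and Arntl thus both rose between these times, while Dbp, Ciart, Tef, and Nr1d1 fell. For diet over the light phase 2 of 16 passed, beside 0.708% of all genes, Nr1d2 with 0.43 ± 0.10 (HFD minus AIN93G; adjusted p = 0.044) and Npas2, which was lower on the HFD (0.046) and for which no fold is given, since its HFD libraries of ZT 8 had at most 1 count.

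Of 15 liver genes linked to PAR bZIP factors by general knowledge, a list also chosen with results known, time of day passed for 3 on the HFD, beside 5.24% of all genes, and 4 on the AIN93G diet, beside 2.40%, with median log2 ranges of 0.76 and 0.39, against 0.45 and 0.28 over all genes. Alas1, the rate-limiting enzyme of haem synthesis, Por, the electron donor of microsomal P450 enzymes, and Cyp2a5, a P450 that hydroxylates coumarin, passed on both diets. Cyp2a5 was the 1 gene of the 15 that passed from ZT 8 to ZT 20, from 703, 1081, and 935 CPM to 353, 306, and 169 CPM, a fall of 1.71 ± 0.38 (adjusted p = 0.018). Its reads may be shared with the near-identical Cyp2a4, so its values are uncertain. In the cosine fit 5 of 15 passed, beside 8.51% of all genes. The acrophases of Cyp2a5 (ZT 11.8 ± 0.37 h), Por (ZT 11.7 ± 0.61), and Cyp7a1 (ZT 11.5 ± 0.88) lay within their SE of those of Tef and Hlf (ZT 11.5 and ZT 11.6). That of Alas1 (ZT 12.7 ± 0.65) lay within its SE of that of Bhlhe40 (ZT 12.99), and that of Ces2a (ZT 13.9 ± 0.75) lay after it. For diet 1 of 15 passed, beside 0.708% of all genes, the P450 gene Cyp2c50, with 0.47 ± 0.10 (HFD minus AIN93G; adjusted p = 0.035).

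Other transcripts were ranked by likeness to each member, as the root mean square difference of log2 CPM, centred on each gene, over the 32 liver libraries. For Dbp, Ciart (1.79) and Nr1d2 (1.85), a REV-ERB gene, were among the 3 nearest, beside a spread of 3.18 of Dbp itself. Upp2, a uridine phosphorylase (0.663), Wee1, a cell cycle kinase (0.712), and Cyp2a5 (0.731) were nearest to Tef, and Rev1 (0.211), Aqp11 (0.221), and Man2a1 (0.235) to Hlf. Pnrc1 (0.326), Lgalsl (0.401), and Clpx (0.405) were nearest to Nfil3. Usp2, a deubiquitinase (0.867), was nearest to Ciart, with A930033H14Rik (1.30) among its 3 nearest. Marveld1 (0.453), the clock repressor Cry2 (0.480), and Hlf (0.486) were nearest to Bhlhe40, and Gpcpd1 (0.936), Tef (0.945), and Mcm10 (0.952) to Bhlhe41, whose low counts make the measure coarse. The measure favours genes of similar amplitude, and it includes the ZT 12 and ZT 24 libraries.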

How the data were processed

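Poly(A) RNA of 42 mice was sequenced, and the deposited table holds read counts of genes as the authors counted them, without normalization. Submitters' processing notes name fastp, STAR, HTSeq 0.6.1, DESeq, STAR-Fusion, and the build mm10. The strand setting is not given in the sources used here, and the deposited columns of gene positions matched GENCODE M21 for 7 of 7 members. Without strand, reads of 5 members and of overlapping genes on the opposite strand cannot be told apart. Of these partners, Sphk2, which overlaps Dbp, had 25.1 to 84.6 CPM in liver libraries, and the others at most 1.44 CPM. That of Ciart, at 0.240 to 1.44 CPM, was in the range of Ciart itself at ZT 0 and ZT 4 (0.181 to 1.96 CPM). That of Bhlhe41 had at most 0.399 CPM, where Bhlhe41 had a liver median of 0.358 CPM.

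Libraries with Alb over 10000 CPM were taken as liver, since the labels name liver for all. Labels give no replicate numbers, and replicates are separate mice numbered in accession order. Numbers in the titles, whose meaning is not given in the sources used here, are shared by some libraries. CPM are counts divided by the library total and scaled to the usual common total. Tests used R 4.3.3 with edgeR 4.0.16 (TMM, quasi-likelihood F-tests), limma 3.58.1 (trend, prior count 2) for the 24 h cosine curve, and DESeq2 1.42.0 as an alternative. Tested were 12000 genes in liver and 14071 in adipocyte-rich libraries, each with a mean of 25 or more counts in the 32 or 10 libraries, with Benjamini-Hochberg adjustment over all of them. Scripts were tested on simulated data. The floor of 3 counts covers counting error only. ZT 12 was left out because earlier results of these data showed that its replicates were far apart in clock transcripts. ZT 24 was left out because it had 1 liver library per diet.

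Members, lists, and tests were chosen with earlier results of these data known. Named genes are the members, the 3 genes nearest to each, up to 3 genes of each list with the largest change from ZT 8 to ZT 20 on the HFD among those whose groups did not overlap, and Nr1d1, Arntl, Alb, and Adipoq. Alas1, Por, Cyp7a1, Ces2a, and Cyp2c50 were named because they passed a test, and Pnpla2, Cidec, and Lipe after their values were seen. A gene among those nearest to Dbp and Ciart is not reported here. Motifs were matched to RefSeq windows, and 1 promoter was not at hand. Alternatives were other tests, scalings, filters, time points, prior counts, and leaving out each library. Diet at single time points, limma in place of edgeR, the title number as a block, and ZT 4 without 1 library were added after values had been seen.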

Additional observations from a re-analysis of the deposited data

How the results depend on the processing

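No member that passed a test changed direction under an alternative. Of 1307 tests of single members under an alternative, 1266 kept their side of the threshold, 26 lost the call, and 15 gained it, and 4 of 120 acrophases moved by more than their SE in the reported fit. In 27 of the tests a value that did not pass changed sign: Bhlhe40 from ZT 0 to ZT 4 (11 settings) and for diet (3), Dbp (1) and Nfil3 (2) for diet at a single time point, Hlf between the adipocyte-rich groups (1), and Ciart (4), Tef (4), and Bhlhe40 (1) in the interaction. With DESeq2, the genes called were 1508 for time of day on the HFD, 807 on the AIN93G diet, 592 for ZT 16 against ZT 4 (4 members), 782 for ZT 20 against ZT 8, 293 for ZT 4 against ZT 0, 850 for ZT 8 against ZT 4, 259 for diet, and 165 for the adipocyte-rich libraries (2 members, Dbp and Nfil3). With no filter on low counts they were 2006, 1192, 818 (5 members), 1001, 326 (5 members), 870, 436 (1 member, Tef), and 2, and 273 for the interaction (2 members). With all 10 adipocyte-rich libraries in 1 fit, 1 gene was called. With ZT 12 added, 318 genes were called on the HFD, 0 genes and 0 members on the AIN93G diet, 16 for diet, and 3 members in the cosine fit, and with the ZT 24 liver library 394 genes in that fit. For diet at a single time point, edgeR called 7 genes at ZT 0, 0 at ZT 4 (404 at an unadjusted p under 0.05, and 457 with 0 called without AIN93G ZT 4 replicate 3), and 5 at ZT 8. The cause of these shifts in counts was not tested.

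Leaving out 1 library at a time gave 408 to 581 genes for time of day on the HFD, 129 to 316 on the AIN93G diet, 67 to 276 for ZT 16 against ZT 4, 249 to 524 for ZT 20 against ZT 8, 35 to 151 for ZT 4 against ZT 0, 35 to 102 for diet, and 724 to 985 for the cosine fit. The lowest counts came without HFD ZT 8 replicate 3, AIN93G ZT 0 replicate 3, HFD ZT 4 replicate 3, HFD ZT 20 replicate 2, AIN93G ZT 0 replicate 2, and HFD ZT 0 replicate 2 in the first 6 of these. Calls of Dbp and Tef stood without any 1 library in each test where they had passed.

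No paired analysis was possible by replicate number, because the labels give none and replicates were numbered in accession order, so numbers in the titles were used as a block instead, which 5 of the 15 HFD libraries, 4 of the 9 AIN93G libraries, and 7 of the 18 light-phase libraries share. With the title number as a random block in limma, the estimated correlation was 0.33, -0.384, and -0.035 (0.026 in the interaction), and the calls of the members were those of limma without it, except that Nfil3 passed from ZT 4 to ZT 16 on the HFD (adjusted p = 0.0476). Depth limits Dbp and Bhlhe41 at ZT 0 and Ciart at ZT 0 and ZT 4, near the floor. The diets were not compared at ZT 16 and ZT 20, where AIN93G has no liver library.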
